A study of Mus musculus with 16 samples.

Results

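Nascent transcription of 9 genes that encode parts of the meiotic chromosome axis and of the synaptonemal complex, Sycp1, Sycp2, Sycp3, Syce1, Syce2, Hormad1, Smc1b, Stag3 and Rec8, was described in mouse embryonic stem cells. The genes were picked by symbol for their role, with earlier results of these data known, and 1 line of the authors' table, the widest, was used for each. All 9 were among the 24978 symbols in the table, and all 9 passed the filter of a mean of at least 0.2 CPM (reads per 1000000 reads of a column) that left 14094 genes. Newly made RNA had been measured by Bru-seq, which feeds cells the nucleoside bromouridine and isolates the RNA that contains it with an antibody, in 16 libraries of 12 groups after a pulse of 30 min at 2 mM. The copy each read came from, 129 or castaneus (cast), had been called at SNPs, so every gene had 2 values per library.

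All groups were of F121-9, a hybrid embryonic stem cell line with a castaneus and a 129 copy of each chromosome, or carry the name of an edit and share the same hybrid background, growth on gelatin in 2i plus LIF and labelling. There were 2 libraries each of F121-9, the unedited reference here, and of the abc.del, c.del and ab.del groups. For a.del, b.del, ac.del, bc.del, 4k.b.c, 100kdel, 245kdel and 680kinv there was 1 library each and therefore no replicate error. The letters name deleted sites, whose positions, like the edited copy and the extent of the other edits, the labels do not give. The series title places the edits in a search for elements that control when and where DNA replicates. Within a group, sample names differ by a code that could stand for a clone, and nothing says that replicates were grown separately. The p-values therefore measure only the spread between these samples, which may be technical. The libraries were deposited in 2 runs of sample numbers with 8 libraries each, called deposit blocks here. F121-9 and abc.del lie wholly in the first block, and ab.del and c.del have 1 library in each.

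In meiotic prophase, sister chromatids are held in loops along an axis built from cohesin and axial proteins, and homologous axes are then zipped together by the synaptonemal complex. Meiotic cohesin contains SMC1B, STAG3 and the cleavable subunit REC8. SYCP2 and SYCP3 form the axial cores and HORMAD1 binds to unsynapsed axes, while SYCP1 is the transverse filament that bridges the axes and SYCE1 and SYCE2 lie in the central element between them. These genes belong to the germline programme, and many germline genes in mouse embryonic stem cells are held down by a repressor complex that contains MGA, MAX, E2F6 and PCGF6 and by DNA methylation at CG-rich promoters.

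Reads over genes ranged from 8.96 M to 32.0 M per library, with a median of 16.4 M (M, 1000000 reads), and 3 reads in a library corresponded to 0.0833 to 0.296 CPM from 129 and 0.0905 to 0.329 CPM from cast. All 10 embryonic stem cell markers examined passed the filter, and their summed level was 1664 to 1876 CPM in F121-9 and 1572 to 2218 CPM in the 10 libraries with a lettered deletion. Summed levels of 8 fibroblast markers reached at most 1.88 CPM and those of 6 primitive endoderm markers at most 3.68 CPM in any library. The 8 markers of 2-cell-like cells summed to 0.730 to 1.25 CPM in F121-9, to 0 to 1.23 CPM in the lettered deletions and to at most 7.97 CPM in any library, and Zscan4c, Zscan4f, Tcstv1 and Tmem92 had 0 reads in every library. Of these markers Zscan4d, whose family has near-identical copies, gave 0.419 and 1.11 CPM in F121-9, at most 0.555 CPM with a median of 0 in the lettered deletions, and at most 3.57 CPM in any library. Its limma adjusted p was 0.0813 in the 10 deletions together, which did not pass, and it passed in 2 of 23 settings. Of 12 germ cell markers, the spermatid genes Prm1, Prm2 and Tnp1 and the spermatocyte gene Pgk2 also had 0 reads in every library. The germ cell list summed to 16.2 and 22.6 CPM in F121-9, to 5.04 to 18.4 CPM in the lettered deletions and to at most 57.0 CPM in any library. The part of these germ cell and 2-cell-like markers in the results below was not tested.

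The promoters are shown for the 4 members that were lower in every lettered deletion (Sycp1, Smc1b, Stag3 and Hormad1), for Sycp3, which has the same E-box letters, and for Syce2, which was not lower. Each sequence is the 250 bases before the RefSeq start (GRCm38.p6, the patched release of mm10), 5′ to 3′ on the gene's strand, and all 9 members matched the RefSeq table. Capitals mark CACGTG, the E-box letters that MGA and MAX bind, and TCCCGC, the core letters of E2F sites, or its reverse complement GCGGGA.
Sycp1 promoter, chr3:102936101-102936350, minus strand: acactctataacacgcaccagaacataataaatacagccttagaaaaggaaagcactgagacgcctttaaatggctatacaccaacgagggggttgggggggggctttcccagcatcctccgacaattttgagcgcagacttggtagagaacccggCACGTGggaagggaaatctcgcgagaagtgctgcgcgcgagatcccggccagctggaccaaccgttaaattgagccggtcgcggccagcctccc
Smc1b promoter, chr15:85131958-85132207, minus strand: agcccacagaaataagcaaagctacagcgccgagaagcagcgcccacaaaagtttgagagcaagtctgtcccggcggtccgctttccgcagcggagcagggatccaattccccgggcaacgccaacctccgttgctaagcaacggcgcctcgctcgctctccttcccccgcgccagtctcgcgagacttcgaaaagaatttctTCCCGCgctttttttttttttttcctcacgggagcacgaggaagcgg
Stag3 promoter, chr5:138280259-138280508, plus strand: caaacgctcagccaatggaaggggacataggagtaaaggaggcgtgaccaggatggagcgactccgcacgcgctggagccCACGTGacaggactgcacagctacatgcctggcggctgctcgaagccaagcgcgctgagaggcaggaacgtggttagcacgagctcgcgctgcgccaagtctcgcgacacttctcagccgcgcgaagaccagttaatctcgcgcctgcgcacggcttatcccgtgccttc
Hormad1 promoter, chr3:95559427-95559676, plus strand: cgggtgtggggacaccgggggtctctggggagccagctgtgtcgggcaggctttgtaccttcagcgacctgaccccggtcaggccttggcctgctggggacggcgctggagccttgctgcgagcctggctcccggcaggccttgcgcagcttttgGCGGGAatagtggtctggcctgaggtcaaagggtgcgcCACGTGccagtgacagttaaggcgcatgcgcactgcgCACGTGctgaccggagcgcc
Sycp3 promoter, chr10:88459337-88459586, plus strand: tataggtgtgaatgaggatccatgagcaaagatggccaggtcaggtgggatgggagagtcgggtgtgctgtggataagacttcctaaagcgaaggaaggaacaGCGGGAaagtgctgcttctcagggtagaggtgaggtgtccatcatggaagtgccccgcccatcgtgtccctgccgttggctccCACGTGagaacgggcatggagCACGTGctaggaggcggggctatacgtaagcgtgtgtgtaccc
Syce2 promoter, chr8:84871861-84872110, plus strand: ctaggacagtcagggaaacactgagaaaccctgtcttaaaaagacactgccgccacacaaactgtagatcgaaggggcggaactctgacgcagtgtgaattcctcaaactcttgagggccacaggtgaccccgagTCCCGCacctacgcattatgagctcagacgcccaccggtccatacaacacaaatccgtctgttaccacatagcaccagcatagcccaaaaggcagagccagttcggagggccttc

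CACGTG was in 4 of the 9 promoters. Sycp1 had it once, 94 bases before the start, and Stag3 once, 170 bases before. Hormad1 had it at 57 and 20 bases and Sycp3 at 64 and 43 bases before the start. The same letters were in 6.02% of 32851 promoters of this length. TCCCGC, on either strand, was in 5 of 9 (Sycp3, Syce2, Hormad1, Smc1b and Rec8) against 16.9% of all promoters, and GGGCGG, the core letters of Sp sites, was in 3 of 9 (Sycp2, Sycp3 and Syce2) against 32.7%. Where a promoter held 2 of these motifs, they did not overlap. Counts of CG in 250 bases were 17 for Sycp1, 25 for Smc1b, 26 for Stag3, 19 for Hormad1, 12 for Sycp3 and 11 for Syce2, against a median of 6 over all promoters, and all 9 members were above that median. These matches describe letters in a window and are not shown to be bound sites.

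Levels in F121-9 differed widely between members. Per kilobase of gene, on the CPM scale and as the mean of both copies, Stag3 was highest at 0.646 CPM per kb, followed by Syce2 at 0.547, Hormad1 at 0.466, Syce1 at 0.303, Smc1b at 0.289, Sycp3 at 0.235, Sycp1 at 0.143, Sycp2 at 0.0165 and Rec8 at 0.00473. Only reads over a base that differs between the copies are counted, so the density of such bases also enters this order. Rec8 had 0 reads in the first F121-9 library and 2 reads, both from cast, in the second.

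**Figure D1:**
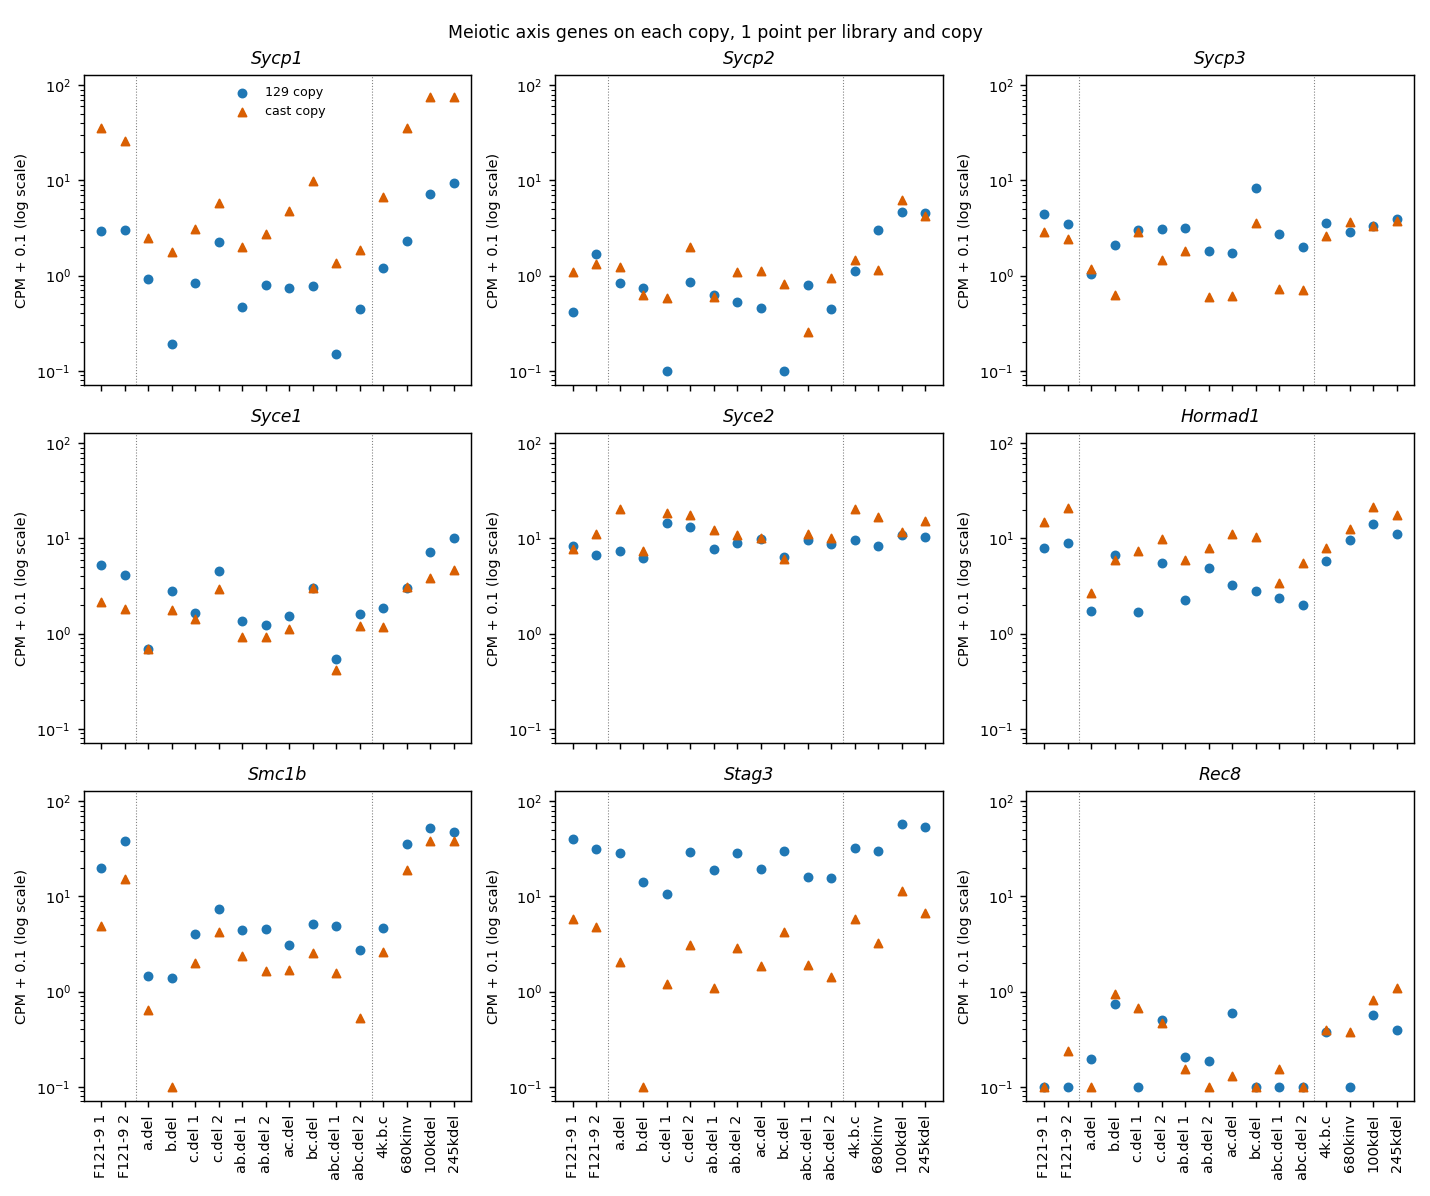
CPM + 0.1 on a log scale (y axis) for each of the 9 genes in the 16 libraries (x axis), 129 as circles and cast as triangles, with dotted lines between F121-9, the lettered deletions and the other edits. Sycp1, Smc1b, Hormad1 and Stag3 are lower in all 10 lettered deletion libraries than in both F121-9 libraries on each copy, and Syce2 stays within 6.08 to 16.5 CPM as the mean of both copies.

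Sycp1, the transverse filament gene (chr3:102818499-102936100, minus strand, mm10), gave 19.1 and 14.5 CPM in the 2 F121-9 libraries as the mean of both copies. The abc.del libraries gave 0.651 and 1.06 CPM, ab.del 1.14 and 1.66 CPM, and c.del 1.85 and 3.91 CPM. The single libraries gave 1.62 CPM in a.del, 0.879 in b.del, 2.64 in ac.del and 5.24 in bc.del. All 10 lettered deletions were below both F121-9 libraries, and the highest of them, bc.del, was 2.77-fold below the lower F121-9 library. Outside the lettered deletions, 4k.b.c gave 3.85 CPM, 680kinv 18.9 CPM, and 100kdel and 245kdel 41.5 and 42.7 CPM, so only 4k.b.c of these 4 was below F121-9.

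In abc.del Sycp1 averaged 0.854 ± 0.287 CPM (SD, n = 2) against 16.8 ± 3.21 CPM (n = 2) in F121-9, a 19.7-fold lower level. It fell by 4.17 on the log2(CPM + 0.1) scale (SE 0.51, limma, Benjamini-Hochberg adjusted p = 0.0217 over 14094 genes). It was the single member of 9 that passed, in a comparison that called 0.22% of all genes and called 0.206% lower. The call was lost without either F121-9 library (adjusted p = 0.442 and 0.507) or either abc.del library (0.382 and 0.235), and without the filter (0.0626), while the log2 change stayed between -4.48 and -3.26 over all 21 settings tried. Whether fewer cells transcribed Sycp1 or each cell transcribed less cannot be told apart in bulk libraries, here and for the other members.

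Sycp1 in ab.del differed from F121-9 by -3.50 (SE 0.51, limma adjusted p = 0.0688) and in c.del by -2.58 (SE 0.51, limma adjusted p = 0.179), and neither passed. These comparisons share the F121-9 libraries. The ab.del difference passed in 8 of 21 settings, edgeR on the recovered reads among them (adjusted p = 0.0209, range 4.11e-13 to 0.828), and the c.del difference in 3 of 21. Sycp1 was lower on each copy. From cast, F121-9 gave 35.3 and 26.1 CPM of Sycp1 and abc.del 1.25 and 1.77 CPM. From 129, F121-9 gave 2.88 and 2.94 CPM, and abc.del 1 and 6 reads. The cast copy fell by 4.26 (SE 0.49, limma adjusted p = 0.0247), the single member among the 0.0225% of genes called on that copy. The 129 copy differed by -3.55 (adjusted p = 0.226 in limma) and did not pass.

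Syce1 (chr7:140777229-140787854, minus strand), a central element gene, gave 3.60 and 2.85 CPM in F121-9 and 0.378 and 1.30 CPM in abc.del. It gave 1.04 and 0.969 CPM in ab.del and 1.42 and 3.62 CPM in c.del, so the c.del libraries lie on both sides of the F121-9 values. The difference was -2.02 for abc.del (SE 0.66, limma adjusted p = 0.313) and -1.58 for ab.del (SE 0.66, limma adjusted p = 0.615), and neither passed. The abc.del difference was -1.24 without the first abc.del library and -2.79 without the second. Of the 10 lettered deletions 8 were below both F121-9 libraries.

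Syce2 (chr8:84872111-84887446, plus strand), the other central element gene, was the exception among the abundant members. It gave 7.94 and 8.85 CPM in F121-9, 10.3 and 9.37 CPM in abc.del, 9.89 and 9.84 CPM in ab.del and 16.5 and 15.4 CPM in c.del. All 6 of these deletion libraries were above both F121-9 libraries, and over the 10 lettered deletions 8 were above and 2, b.del at 6.70 CPM and bc.del at 6.08 CPM, were below. The differences were 0.22 in abc.del, 0.23 in ab.del and 0.92 in c.del (SE 0.27, limma adjusted p = 0.809, 0.820 and 0.367), none of which passed. Across the 16 libraries the highest Syce2 value was 2.71 times the lowest, compared with 65.7 times for Sycp1 and 70.9 times for Smc1b. Farsa, the nearest gene upstream on the same strand at 2.85 kb, averaged 5.91 CPM, and Gcdh overlaps Syce2 on the opposite strand at 2.44 CPM. Their part in the Syce2 values was not tested.

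Hormad1 (chr3:95559677-95587860, plus strand), which marks unsynapsed axes, gave 11.3 and 14.9 CPM in F121-9. It gave 2.80 and 3.69 CPM in abc.del, 3.98 and 6.29 CPM in ab.del, 4.47 and 7.59 CPM in c.del, 2.09 CPM in a.del, 6.24 in b.del, 7.09 in ac.del and 6.43 in bc.del. Every lettered deletion was below both F121-9 libraries, the closest by 1.49-fold. The abc.del mean was 3.25 ± 0.628 CPM against 13.1 ± 2.58 CPM (SD, n = 2 each), a difference of -1.98 (SE 0.42, limma adjusted p = 0.120) that did not pass. It passed in 6 of 21 settings, among them only the 2 groups in the fit (adjusted p = 0.00872), median centring (0.0339) and DESeq2 (2.71e-05), and its adjusted p reached 0.854 at most.

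Both axial core genes gave few reads. Sycp3 (chr10:88459587-88473236, plus strand) gave 3.58 and 2.85 CPM in F121-9 and 1.62 and 1.25 CPM in abc.del, a difference of -1.11 (SE 0.51, limma adjusted p = 0.506). It was below both F121-9 libraries in 9 of 10 lettered deletions, and the tenth, bc.del, held its highest value of all libraries, 5.91 CPM. Chpt1 overlaps it on the opposite strand at 10.9 CPM. Sycp2 (chr2:178345296-178407658, minus strand) gave 0.651 and 1.41 CPM in F121-9 and 0.423 and 0.599 CPM in abc.del, a difference of -0.82 (SE 0.76, limma adjusted p = 0.744), and the F121-9 libraries differed by more than the groups. That difference was -1.32 without the first F121-9 library and -0.31 without the second.

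Smc1b (chr15:85064689-85131957, minus strand), the meiotic SMC subunit of cohesin, gave 12.3 and 26.6 CPM in F121-9, a wide spread within the reference itself. It gave 3.12 and 1.53 CPM in abc.del, 3.28 and 2.97 CPM in ab.del, 2.90 and 5.75 CPM in c.del, 0.953 CPM in a.del, 0.638 in b.del, 2.27 in ac.del and 3.73 in bc.del. All 10 were below both F121-9 libraries, the closest by 2.14-fold. The abc.del mean of 2.33 ± 1.12 CPM was 8.35-fold below the 19.4 ± 10.1 CPM of F121-9 (SD, n = 2 each), a difference of -2.99 (SE 0.54, limma adjusted p = 0.0802) that did not pass. It passed in 6 of 21 settings, among them only the 2 groups in the fit (adjusted p = 0.00885), median centring (0.0189) and DESeq2 (6.75e-08), and not in edgeR, and its adjusted p reached 0.850 at most. In b.del the cast copy of Smc1b had 0 reads, which allows up to 0.313 CPM, and the 129 copy had 14.

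Stag3 (chr5:138280509-138312393, plus strand), the meiotic STAG subunit, gave 23.0 and 18.2 CPM in F121-9. It gave 8.80 and 8.51 CPM in abc.del, 9.92 and 15.6 CPM in ab.del, 5.80 and 16.3 CPM in c.del, 15.1 CPM in a.del, 7.01 in b.del, 10.6 in ac.del and 16.9 in bc.del. All 10 were below both F121-9 libraries, but the closest, bc.del, by only 1.08-fold. The abc.del mean was 8.66 ± 0.203 CPM against 20.6 ± 3.35 CPM (SD, n = 2 each), 2.38-fold lower, a difference of -1.23 (SE 0.46, limma adjusted p = 0.388) that did not pass. It passed in 3 of 21 settings. These were only the 2 groups in the fit (adjusted p = 0.0175), deposit block as a covariate (0.0271) and DESeq2 (0.0463). Rec8 (chr14:55618166-55625395, plus strand), whose product closes the cohesin ring, had 112 reads in all 16 libraries together. Rec8 gave 0 and 0.0684 CPM in F121-9, 0.0261 and 0 CPM in abc.del and, in c.del, 0.285 and 0.388 CPM. Its highest value was 0.736 CPM in b.del, so differences between most libraries were not detectable at this depth. In c.del it was higher than in F121-9, with 13 reads in each library and a difference of 1.74 (SE 0.62, limma adjusted p = 0.451) that did not pass. Of the 10 lettered deletions 5 were above both F121-9 libraries. None could be below both, because the first F121-9 library had 0 reads of Rec8. The Rec8 mean over the 16 libraries, 0.225 CPM, was just above the filter of 0.2 CPM, and the median was 0.108 CPM.

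Over the 10 lettered deletions, 4 of 9 members were below both F121-9 libraries without overlap, where 5.48% of all 14094 genes were, and 0 of 9 were above both, where 4.88% were. Sycp1, Hormad1, Smc1b and Stag3 were also below without overlap on each copy taken alone. They were picked by the mean of both copies, so this is no separate check. The share of all genes on each copy was not counted. The smallest gaps were 1.07-fold for Stag3 on 129, and 1.12-fold for Stag3 and 1.15-fold for Smc1b on cast. The 5 lettered deletion libraries of the first deposit block are among the 10, so their lower values for these 4 members follow and are no separate check. Those 5 libraries were below both F121-9 libraries for 11.4% of all genes. A comparison of the 10 libraries with the 2 of F121-9 was added after these values were seen. In it Sycp1 fell by 3.21 (SE 0.60, limma adjusted p = 0.0146) and Smc1b fell by 2.91 (SE 0.61, limma adjusted p = 0.0300), and 1.15% of all genes passed, 1% of all genes in the lower direction. Hormad1 differed by -1.45 (adjusted p = 0.129 in limma), Syce1 by -1.24 (0.361) and Stag3 by -0.92 (0.274), and Syce2 by 0.29 (0.688). The Sycp1 call was lost without either F121-9 library (adjusted p = 0.261 and 0.337), as was the Smc1b call (0.177 and 0.727). The Smc1b call was also lost without the second abc.del library (0.0513), without the eBayes trend (0.0537) and with deposit block as a covariate (0.0615).

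**Figure D2:**
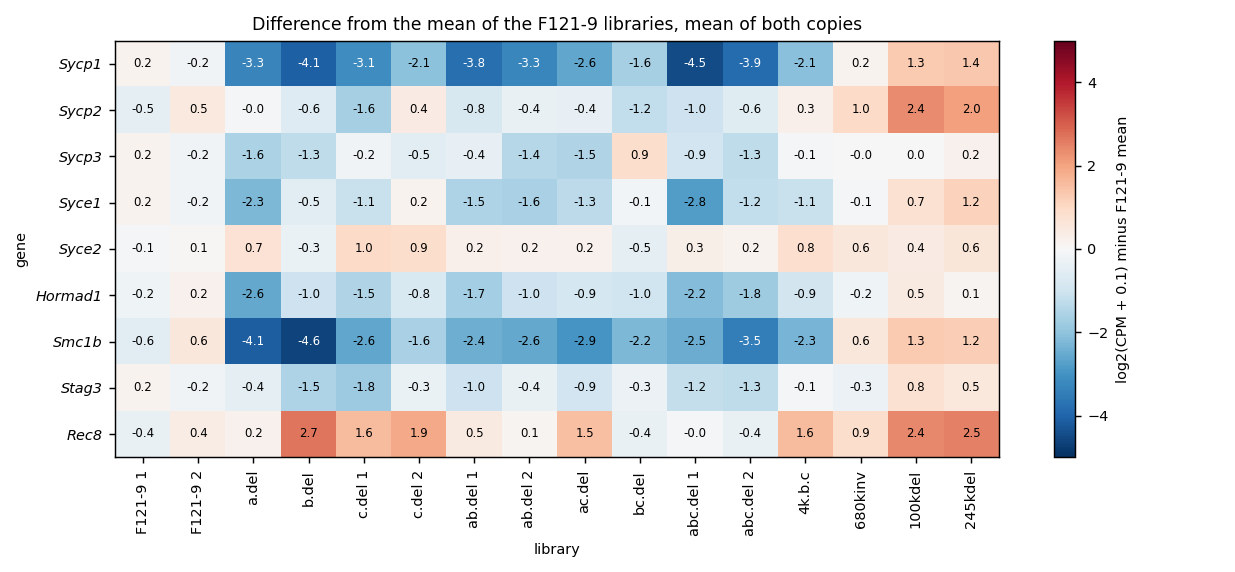
Difference of log2(CPM + 0.1) from the mean of the 2 F121-9 libraries for the 9 genes (rows) in 16 libraries (columns), mean of both copies, blue for lower and red for higher. The Sycp1 and Smc1b rows are blue in every lettered deletion and in 4k.b.c and red in 100kdel and 245kdel, while the Syce2 row is pale throughout.

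On 1 copy at a time fewer reads stood behind each value. On 129, 0 of the 8 members tested passed in limma in abc.del, ab.del, c.del or the 10 deletions together, where 0.0965%, 0.0519%, 0% and 0.0519% of autosomal genes passed. On cast, Sycp1 in abc.del was the single call, and 0 of 9 members passed in ab.del, c.del or the 10 deletions, where 0%, 0% and 0.015% of genes passed. At an unadjusted p under 0.05 the counts on 129 were 5, 3, 4 and 5 members in the same order, where 8.87%, 6.44%, 7.65% and 11.3% of genes had such a p. On cast they were 5, 4, 3 and 3 members, where 8.43%, 6.06%, 8.32% and 10.4% of genes had. The c.del counts include Syce2 on each copy, which was higher there (0.89 on 129 and 0.97 on cast). On 129 edgeR called 1, 0, 0 and 1 members and DESeq2 3, 1, 1 and 1. Of all 13478 genes tested on that copy, edgeR called 10, 6, 2 and 38 and DESeq2 196, 95, 114 and 134. On cast edgeR called 1 member in each and DESeq2 3, 1, 1 and 1. Of all 13359 genes tested there, edgeR called 8, 2, 4 and 21 and DESeq2 168, 50, 91 and 111.

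The median difference of the 9 members was -1.23 in abc.del, -0.93 in ab.del and -0.61 in c.del, where the median of all genes was 0.04, 0.08 and 0.09. Of the 9 members 8, 7 and 7 had a difference below 0, where 46.3%, 42.7% and 43.0% of all genes had. For ab.del and c.del 0 members passed in limma, where 0.0497% of all genes passed in each. At an unadjusted p under 0.05 there were 4 and 6 members, where 7.8% and 9.44% of all genes were. Of the 6 in c.del, Syce2 (0.92) and Rec8 (1.74) were higher than in F121-9. In edgeR 1 and 0 members passed, where 11 and 8 of all genes did. DESeq2 called 3 members in each, where it called 187 and 222 of all genes. In additive terms for the sites over the 12 lettered libraries, F121-9 included, 0 members passed for any site, where 0.0142% of all genes passed for site a and 0% for sites b and c. The counts at an unadjusted p under 0.05 were 4, 1 and 0 members for sites a, b and c, where 8.84%, 5.09% and 3.26% of all genes were. In edgeR 0 members passed for each, where 2, 0 and 0 of all genes did. DESeq2 called 3, 0 and 0 members, where it called 160, 9 and 3 of all genes. The site a term was -1.51 for Syce1 (limma adjusted p = 0.402), -1.31 for Sycp1 (0.553) and -1.09 for Sycp3 (0.493), and the site b term was -1.23 for Sycp1 (0.973). Single libraries moved these terms. Without b.del the site a term was -2.05 for Sycp1 and -1.58 for Sycp3, and without bc.del -0.76 and -0.75, while the site b term of Sycp1 was -0.49 without b.del and -1.78 without bc.del. Over all genes the median of the site a term was 0.10 and that of the site b term -0.10.

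The 100kdel and 245kdel libraries lay on the other side of F121-9. For 5 of 9 members (Sycp1, Sycp2, Syce1, Smc1b and Stag3) both were above the other 14 libraries, where 9.64% of all genes were. From the cast copy, Sycp1 was 2.39-fold higher in 100kdel (95% counting interval 2.20 to 2.59) and 2.40-fold higher in 245kdel (2.18 to 2.63) than in the pooled F121-9 reads. Sycp2 was 5.63-fold higher from 129 in 100kdel (3.72 to 8.69) and 5.48-fold higher in 245kdel (3.43 to 8.82). From cast Sycp2 was 5.69-fold (3.90 to 8.41) and 3.84-fold (2.41 to 6.13) higher. The pooled F121-9 reads of Sycp2 were few, 34 from 129 and 41 from cast. From 129 the 2 F121-9 libraries gave 0.311 and 1.59 CPM of Sycp2. Smc1b from cast was 4.41-fold (3.85 to 5.06) and 4.36-fold (3.74 to 5.08) higher, and from 129 it was 1.93-fold (1.76 to 2.10) and 1.75-fold (1.57 to 1.95) higher. Sycp3 was not apart, at 0.809-fold from 129 in 100kdel (0.585 to 1.10) and 0.967-fold in 245kdel (0.664 to 1.38). From cast Sycp3 was at 1.24-fold (0.864 to 1.76) and 1.38-fold (0.903 to 2.07). These are exact intervals for counting error in single libraries of the second deposit block. They do not cover the difference between cultures, and block and edit cannot be told apart here because the second block holds no F121-9 library.

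The copies of most members were unequal on average over the libraries, but only Sycp1, Smc1b and Stag3 kept the same direction in every library. Over the 16 libraries, the log2 difference of 129 minus cast passed for 7 of 9 members in limma, in a test that called 47.6% of 13583 autosomal genes, 25% with 129 higher and 22.6% with cast higher. That background is high, so the sizes of the differences are given beside the calls. Stag3 came mostly from 129. The difference was 3.38 (SE 0.26, limma adjusted p = 7.06e-09), with 129 above cast in 16 of 16 libraries and a median of 8.77% of reads from cast (range 0 to 14.8%). Only 106 other genes of the 13583 had a difference of that size or more in either direction. In F121-9 Stag3 gave 1036 and 519 reads from 129 and 131 and 68 from cast, and in b.del 154 and 0.

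Sycp1 came mostly from cast, with a difference of -2.68 (SE 0.20, limma adjusted p = 3.71e-09), cast above 129 in 16 of 16 libraries and a median of 87.5% of reads from cast (range 71.3 to 96.0%). A difference of that size or more was found for 243 other genes. Smc1b was higher from 129 in 16 of 16 libraries (1.31, SE 0.20, limma adjusted p = 3.40e-05), and 129 was above cast in all libraries for 9.11% of autosomal genes and cast above 129 for 7.78%. Hormad1 was higher from cast in 15 of 16 libraries (-0.97, SE 0.15, limma adjusted p = 4.09e-05) and Syce2 in 14 (-0.45, SE 0.11, limma adjusted p = 0.00223). Sycp3 was higher from 129 in 13 (0.79, SE 0.18, limma adjusted p = 0.00172) and Syce1 in 14 (0.55, SE 0.11, limma adjusted p = 0.000503). Sycp2 (-0.58, adjusted p = 0.125 in limma) and Rec8 (-0.27, 0.475) did not pass.

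Some of these values move with whole chromosomes. On chromosome 3, which carries Sycp1 and Hormad1, the median of 129 minus cast over genes was -1.13 in the first c.del library and -0.99 in ac.del, with the mean of both copies 0.47 and 0.66 above F121-9 at the median. On chromosome 7, with Syce1, it was -0.89 in 4k.b.c, and on chromosome 8, with Syce2, it was -0.94 in 4k.b.c, -0.999 in a.del and -0.28 in the first c.del library. On the members' chromosomes in the other libraries it was within 0.125 of 0. Syce2 gave 13.7 CPM in a.del and 14.9 CPM in 4k.b.c, with 20.2 and 20.3 CPM from cast. The chromosome 8 median of the mean of both copies was 0.84 and 0.68 above F121-9 there, with Syce2 0.70 and 0.82 above. In abc.del that median was 0.10 and 0.12 (Syce2 0.29 and 0.16), and in ab.del -0.03 and 0.23 (Syce2 0.24 and 0.23). In c.del it was 0.07 and 0.34 (Syce2 0.97 and 0.87). The part of the chromosome in the Syce2 values was not tested. With each library's chromosome median subtracted, the copy difference of the 7 members still passed.

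**Figure D3:**
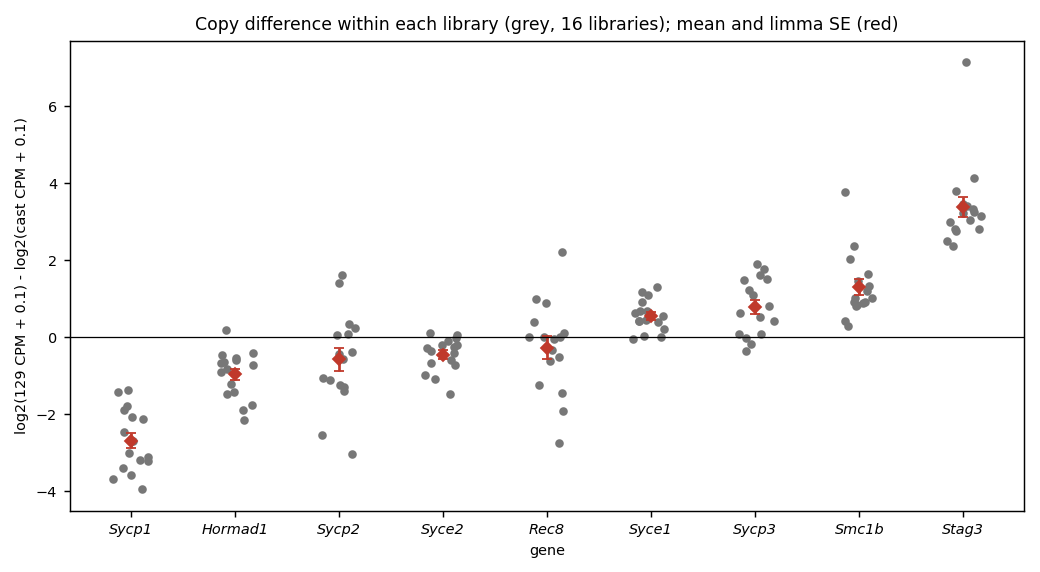
Difference of log2(129 CPM + 0.1) and log2(cast CPM + 0.1) (y axis) for each gene (x axis), 1 grey point per library (16), with the mean and its limma SE in red. Stag3 is above 0 and Sycp1 below 0 in all 16 libraries, and the highest Stag3 point is b.del, where the cast copy had 0 reads.

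Across the 16 libraries 20 of 36 pairs of members had a Pearson r above 0.5 on the log2(CPM + 0.1) scale, and 3 pairs were below 0. The highest was Sycp1 with Smc1b (r = 0.92), followed by Sycp1 with Hormad1 (0.88), Syce1 with Hormad1 (0.87), Sycp1 with Stag3 (0.85) and Sycp1 with Syce1 (0.85). Syce2 had r between -0.09 and 0.36 with the other 8 members, and Rec8 between 0.04 and 0.52. Points share a library's depth and its normalization, replicates of a group are among them, and the F121-9, deletion and other libraries form clusters, so these values describe the libraries and carry no test.

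**Figure D4:**
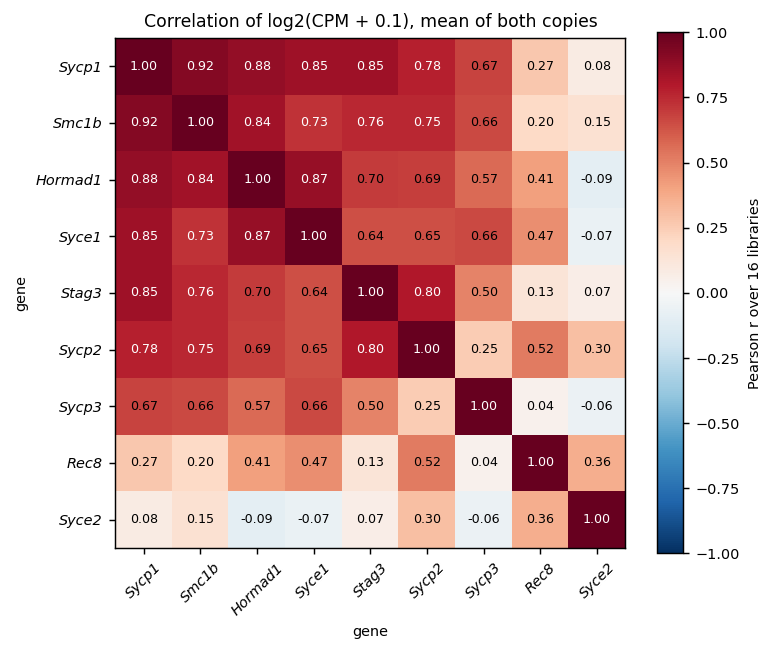
Pearson r between each pair of the 9 genes (both axes) over 16 libraries, mean of both copies on the log2(CPM + 0.1) scale, in red above 0 and blue below 0. Sycp1, Smc1b, Hormad1, Syce1, Stag3 and Sycp2 form a block with r of 0.64 to 0.92, and Syce2 is near 0 with most others.

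Among 10832 autosomal genes with a mean of at least 1 CPM, those most like each member over the same 16 libraries were named by r alone. For Sycp1 they were Cox7b2 (r = 0.961), a testis-type cytochrome oxidase subunit, and Caln1 (0.957). For Smc1b they were Gm20756 (0.975) and Patl2 (0.968), an oocyte RNA-binding protein gene. For Hormad1 they were Spink13 (0.944) and Fam3b (0.943), for Stag3 Spic (0.952) and Gm38509 (0.935), for Syce1 Dock2 (0.938) and Ptpn20 (0.932), and for Sycp2 Tub (0.949) and Prickle1 (0.941). Sycp3 was most like Smg1 (0.902) and Sgsm3 (0.873), and Syce2 most like Got2 (0.863), which is also on chromosome 8, and Sema4g (0.855). Cox7b2 gave 31.6 CPM in F121-9 and a median of 1.93 CPM in the lettered deletions.

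The nearest genes upstream on the same strand were low beside most members: Nr1h5 upstream of Sycp1 at 0.0354 CPM, Gm19277 upstream of Smc1b at 0.00450 CPM, Ctss upstream of Hormad1 at 0.0715 CPM, Ppp1r3d upstream of Sycp2 at 0.0627 CPM and 6330418K02Rik upstream of Stag3 at 0.902 CPM. Gnptab lies 12.3 kb upstream of Sycp3 at 58.6 CPM, Zfp941 21.8 kb upstream of Syce1 at 38.8 CPM and Irf9 8.13 kb upstream of Rec8 at 2.67 CPM. None of the 9 members overlaps another gene on its own strand in the table.

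Other genes of meiotic prophase were taken from 6 lists of 59 genes, of which 55 were in the table and 51 were tested. None of the 51 passed in limma in abc.del, ab.del, c.del, the 10 deletions together or any site term, while 6, 2, 4 and 8 had an unadjusted p under 0.05 in the first 4 of these, where 10.3%, 7.8%, 9.44% and 14.9% of all genes had, and edgeR called 0 in each. The median difference in abc.del was -0.30 over 21 recombination genes, -1.08 over 6 telomere attachment genes, -0.74 over 4 meiotic entry genes and -0.08 over 7 axis and cohesin partners, against 0.04 over all genes. Within the synaptonemal complex, 4930447C04Rik (Six6os1), a central element gene, was the single partner of 3 that passed the filter. It gave 12.3 and 15.2 CPM in F121-9, 2.91 to 18.8 CPM in the lettered deletions, and differed by -1.60 in abc.del (limma adjusted p = 0.367), a difference that passed in 2 of 21 settings. Syce3 reached at most 0.0290 CPM in any library.

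Among axis and cohesin partners, the subunits shared with mitotic cohesin did not pass. Rad21 gave 188 and 190 CPM in F121-9 and 163 to 203 CPM in the lettered deletions, and Smc1a gave 114 and 90.1 CPM in F121-9 and 64.7 to 88.3 CPM in the deletions. Smc1a was thus below both F121-9 libraries in all 10 deletions, as were 5.48% of all genes. It differed by -0.51 in abc.del (limma adjusted p = 0.444). Hormad2, a paralogue of Hormad1, gave 95.2 and 135 CPM in F121-9 and 36.5 to 166 CPM in the deletions, with a difference of 0.26 in abc.del (limma adjusted p = 0.732), which was 0.01 to 0.51 with 1 library left out. The recombination genes Hsf2bp (104 CPM on average), Mnd1 (52.5) and Mei4 (38.1) were transcribed in all libraries and differed by 0.03, 0.54 and -0.20 in abc.del, where the sign for Hsf2bp and Mei4 depended on the setting. Dazl, an RNA-binding protein of meiotic entry, gave 15.0 and 7.67 CPM in F121-9, 0.516 to 7.70 CPM in the deletions and 47.2 CPM at most, with a difference of -3.22 in abc.del (limma adjusted p = 0.323). Terb2, which ties telomeres to the envelope, gave 7.37 and 8.39 CPM in F121-9 and 0.927 to 6.56 CPM in the deletions, with a difference of -1.88 in abc.del (limma adjusted p = 0.175). The abc.del differences of Dazl and Terb2 passed in 3 of 21 settings each, DESeq2 among them.

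The 12 genes of germline repression had a median difference of 0.16 in abc.del, and none passed. The highest were Dnmt1 at 136 CPM, Uhrf1 at 97.0 CPM, Rnf2 at 86.1 CPM and Max at 76.6 CPM on average. Dnmt1 gave 126 and 125 CPM in F121-9 and 112 to 195 CPM in the lettered deletions, and Max gave 69.9 and 75.9 CPM in F121-9 and 63.5 to 84.5 CPM in the deletions. Their part in the values of the 9 members was not tested.

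**Figure D5:**
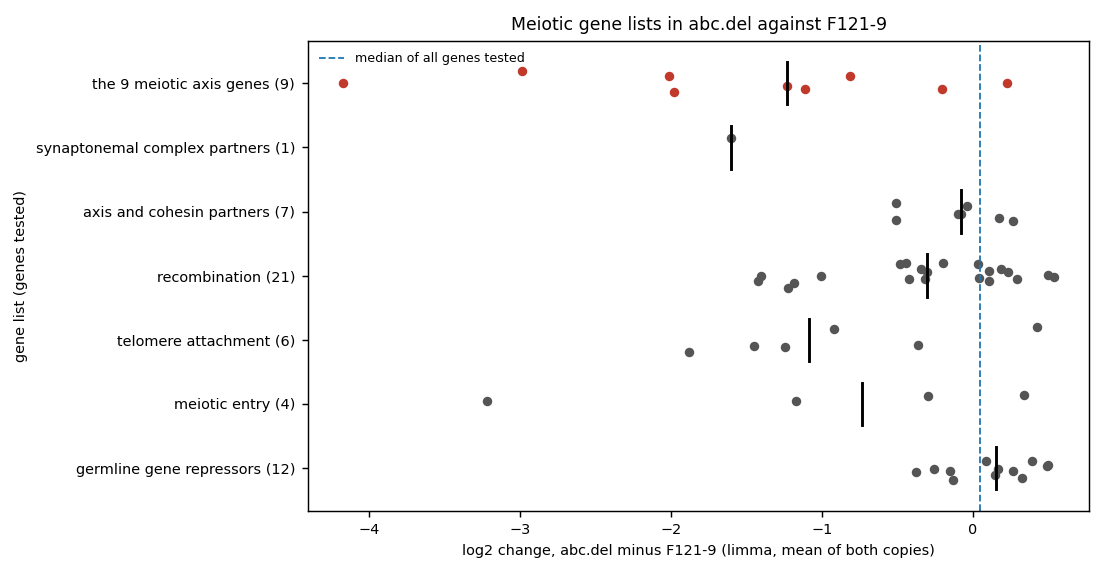
Log2 change of abc.del against F121-9 (x axis) for the 9 members in red and for the tested genes of each of the 6 meiotic lists in grey (y axis), with the list median as a black bar and the median of all genes as a dashed line. The median of the 9 members is -1.23, and Sycp1 at -4.17 is the single point of these lists that passed the test.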

How the data were processed

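Per the labels' protocols, cells were pulse labelled with bromouridine, 300 ng of captured RNA was made into strand-specific libraries, and 100 bp single-end reads were sequenced. Bowtie2, bedtools and the mm10 build are named in the submitters' processing notes, with versions not given in the sources used here. The table's column names, per the file headers, record clipping, a mapping quality cutoff of 10 and a split at homozygous SNPs into reference and variant reads. The names give svim for the reference, which was read as 129. The values deposited by the authors are CPM, since each of the 32 columns sums to 1000000 over all 42497 lines, although the table is named for RPKM. In every column 100% of values were whole multiples, within 0.01, of the smallest value that was not 0. The read numbers recovered in this way entered the intervals, edgeR and DESeq2. Because the total includes repeated transcripts, reads over genes are part of it. Reads over no SNP are in neither column.

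For each symbol the widest line was used, leaving out 6 segments drawn by the authors. The mean of both copies was analysed as log2(CPM + 0.1) for genes with a mean of at least 0.2 CPM, without further scaling, so fold changes understate those of low genes. The 4 groups with 2 libraries were fitted together by limma 3.58.1 in R 4.3.3 with a trended eBayes step, and two-sided p-values were adjusted over all genes by Benjamini-Hochberg with a threshold of 0.05. Further fits were additive site terms over 12 libraries, each copy alone over autosomal genes (13478 for 129 and 13359 for cast, where Rec8 was not tested on 129), and 129 minus cast over 16 libraries. The genes named are the 9 members, up to 4 genes of each list, the 2 genes most like each member and its nearest upstream gene. One gene the rule would name is not reported here. The members and lists were chosen with earlier results of these data known. Alternatives were a pseudocount of 0.01 or 1, other filters, median centring, eBayes without trend, the narrowest line, edgeR 4.0.16 and DESeq2 1.42.0 on recovered reads, deposit block, other sets of libraries and leaving out each library. All 10 lettered deletions against F121-9, and the same within the first deposit block, were added after the data were seen. The fits were tested on simulated counts. Intervals are exact or Wilson at 95%, a floor is 3 reads, and both cover counting error only. Python 3.11.15 was used for the rest.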

Additional observations from a re-analysis of the deposited data

How the results depend on the processing

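The counts of members that passed depended on the setting, while 0 of the members' log2 differences recomputed under them reversed. Among the other genes, the abc.del difference of Hsf2bp reversed to -0.0057 with median centring, -0.022 in edgeR and -0.029 in DESeq2 and ranged from -0.20 to 0.27 with 1 library left out, and that of Mei4 ranged from -0.61 to 0.20. The cause of these shifts was not tested. In abc.del against F121-9 on the mean of both copies, 1 member passed, against 0 without the filter, 3 with median centring and 4 each in DESeq2, with deposit block as a covariate and with only the 2 groups compared. For ab.del the count of 0 became 1 with a pseudocount of 1, in edgeR and with only the 2 groups compared, 2 with median centring and 3 in DESeq2 and with deposit block as a covariate. For c.del the count of 0 became 1 with median centring, 3 in DESeq2 and 2 with deposit block as a covariate. For the 10 deletions together the count of 2 became 1 without the eBayes trend and with deposit block as a covariate, and 3, with Hormad1 added, in DESeq2 (adjusted p = 0.0154) and in the first deposit block only (0.0365). For the site a term the count of 0 became 3 in DESeq2, where 160 of all genes passed against 2 in limma.

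On the 129 copy alone the count of 0 for abc.del became 1 with median centring and in edgeR, 3 in DESeq2 and with only the 2 groups compared and 4 with deposit block as a covariate. For ab.del on 129 it became 1 with median centring, in DESeq2 and with deposit block, for c.del 1 in DESeq2 and 3 with deposit block, and for the 10 deletions 1 with a pseudocount of 1, without the filter, in edgeR, in DESeq2 and in the first deposit block only. On the cast copy the count of 1 for abc.del became 0 without the filter and without the eBayes trend, 3 in DESeq2 and with deposit block, and 2 with only the 2 groups compared. For ab.del on cast the count of 0 became 1 with median centring, in edgeR, in DESeq2, with deposit block and with only the 2 groups compared, for c.del 1 in edgeR, in DESeq2 and with deposit block, and for the 10 deletions 1 with a pseudocount of 1, without the filter, in edgeR and in DESeq2. Calls over all genes also rose in several of these settings. On 129 the 13 calls of abc.del became 41 with median centring, 147 with only the 2 groups compared and 328 with deposit block. The 0 calls of c.del on 129 became 143 with deposit block. On cast the 3 calls of abc.del became 95 with only the 2 groups compared and 196 with deposit block.

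Leaving out 1 library at a time gave 0 to 3 members for abc.del, 0 to 1 for ab.del, 0 to 0 for c.del and 0 to 2 for the 10 deletions on the mean of both copies. It gave 0 to 1 on each copy for abc.del, for ab.del on cast, for c.del on cast and for the 10 deletions, where the lone library left in an arm is assumed to vary like the other groups. The 3 for abc.del came without either c.del library, and the 1 for ab.del likewise. The difference of 129 and cast passed for 7 members in each of 8 other settings and for 7 to 8 with 1 library left out.

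Over all genes, the 31 calls of abc.del became 13 with a pseudocount of 0.01, 15 with a filter of 1 CPM, 18 in edgeR, 44 without the filter, 85 with median centring, 358 in DESeq2, 599 with only the 2 groups compared and 671 with deposit block as a covariate. The 7 of ab.del became 187 in DESeq2 and 202 with deposit block, the 7 of c.del 222 and 207, and the 162 of the 10 deletions 430 in DESeq2 and 388 without the filter. No paired analysis was possible because the labels number only the F121-9 replicates. With 2 libraries a group and few reads, most differences in Rec8 were not detectable at this depth, and its higher value in c.del did not pass in limma.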
